A study of Drosophila melanogaster with 6 samples.

Results

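The Notch pathway genes N, Dl, Ser, Su(H), H, mam, kuz, fng and E(spl)m3-HLH were examined on 6 Affymetrix arrays of Drosophila S2 cells, an embryonic line with features of haemocytes. Members were taken by gene symbol in the platform annotation, current or older, and 6 of the 9 genes had a probe set named there. Only probe sets with 1 gene symbol were searched, and those with several were left out. These were 9 of the 18952 probe sets on the array: 2 each for Dl, H and mam, and 1 each for kuz, fng and E(spl)m3-HLH. N, Ser and Su(H) had no such probe set and were not analysed here. The receptor, the second ligand and the DNA-binding factor of the pathway thus have no value below.

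The cells had received a control transfection (2 arrays), which the series text describes as empty vector, or pAc-Clk at 10 ng (2 arrays), 30 ng (1 array) or 100 ng (1 array), and RNA was taken after 48 h. pAc-Clk carries Clk, the bHLH-PAS partner of Cyc in the circadian clock, in a plasmid of the kind that uses a constitutive actin promoter. The share of cells that took up plasmid is not stated in the labels, and each value is an average over the culture, so a change in a few cells and a smaller change in all of them cannot be told apart. The labels do not say whether replicates came from separate cultures, and the spread behind each p-value may be technical. Signals are on a log2 scale inferred from the values: the natural log of the deposited intensity was read as log2, and taking log2 of that intensity instead would make each change 1.44 times as large.

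Notch is a transmembrane receptor that is cut after it binds Delta (Dl) or Serrate (Ser) on a neighbouring cell. The ADAM protease Kuzbanian (kuz) makes the first of these cuts and gamma-secretase the next, and the freed intracellular part enters the nucleus, where it joins Su(H) and the coactivator Mastermind (mam). Without that signal Su(H) is bound by Hairless (H), which recruits the corepressors Groucho and CtBP, and Fringe (fng) adds sugars to the receptor that change which ligand it answers to. The bHLH and Bearded-family genes of the E(spl) complex, E(spl)m3-HLH among them, are the best known direct targets. S2 cells are a standard host for Notch aggregation assays, in which receptor and ligand are supplied on plasmids.

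The check of the transfection and of the arrays bears on every value that follows. Clk read 2.50 and 2.84 in controls, 3.46 and 3.47 with 10 ng, 5.07 with 30 ng and 4.66 with 100 ng. tim, a direct target of Clk and Cyc, read 3.27 and 4.03 in controls, 8.56 and 8.18 with 10 ng, 9.85 with 30 ng and 12.35 with 100 ng by its brighter probe set. The mean 5' minus 3' signal of 3 control transcripts was -0.75 and -0.75 in controls, -1.25 and -0.64 with 10 ng, -9.40 with 30 ng and -8.25 with 100 ng. The 30 and 100 ng arrays thus stand apart from the rest, and on them the dose and the low 5' signal cannot be told apart. All 9 haemocyte markers examined, such as srp and Hml, read above background on all 6 arrays. The sum of their linear signals was 72602 to 98357 on the Clk arrays and 101020 to 110997 on the controls. The markers went both ways at 100 ng. Pxn read 10.58 by its brighter probe set, against 14.05 and 14.22 in controls, and Col4a1 11.98, against 14.44 and 14.67. Hml, NimC1 and vkg were also below both controls there, and srp, Sr-CI, He and crq were above both. Of markers of other cell types, 0 of 2 for muscle, 1 of 2 for fat body, 2 of 3 for neurons and 1 of 3 for germ cells were above background on all 6 arrays, and vas, which defines germ cells, was under it on all of them. The summed linear signal was 82 to 217 on the Clk arrays and 95 to 108 on the controls for neuronal markers, and 183 to 782 and 205 to 210 for germ cell markers, with the highest value of each at 100 ng. The part of these shifts in the changes below was not tested.

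Of the ligands, Dl had no signal above background except on the 100 ng array, and there by 1 of its 2 probe sets. The background of each array was taken as the highest of its 17 Tag probe sets, controls made to match no fly RNA. It was 2.96 and 2.97 in controls, 2.95 and 3.22 with 10 ng, 3.18 with 30 ng and 3.56 with 100 ng. Dl probe set 1634398_a_at read 2.58 and 2.63 in controls, 2.64 and 2.62 with 10 ng, 2.67 with 30 ng and 4.08 with 100 ng. Dl probe set 1634659_at read 2.64 and 2.66 in controls, 2.62 and 2.66 with 10 ng, 2.77 with 30 ng and 3.38 with 100 ng. Neither passed the filter for testing, a signal of 4 or more on at least 2 arrays, so neither is counted as tested. With no filter both were called higher at 100 ng (1.47, SE 0.05, and 0.73, SE 0.05, limma adjusted p = 0.00102 and 0.00194), as were 38.7% of genes in that fit, although 1634659_at was under background on all 6 arrays. Among the 4738 named probe sets under background on both controls, 7.53% read above it on the 100 ng array, against 4.26% and 0.760% on the 10 ng arrays and 2.60% at 30 ng. The single reading of Dl above background at 100 ng is therefore 1 of 357 of this kind. The other ligand-like gene with a probe set, wry, encodes a protein related to Dl and Ser. It lay near background at 3.05 and 3.12 in controls, 2.99 and 3.03 with 10 ng and 3.18 with 30 ng. With 100 ng wry read 4.12, above the background of 3.56. It did not pass the filter, and with no filter it was called higher at 100 ng (1.04, SE 0.08, limma adjusted p = 0.00244).

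The other 7 member probe sets, of H, mam, kuz, fng and E(spl)m3-HLH, read above background on all 6 arrays, as did 54.6% of the 13647 probe sets with 1 gene symbol. All 7 also passed the filter. S2 cells thus gave signal for the receptor protease, the glycosyltransferase, the corepressor adaptor, the coactivator and a target gene, with no signal for Dl in the control transfection.

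**Figure D1:**
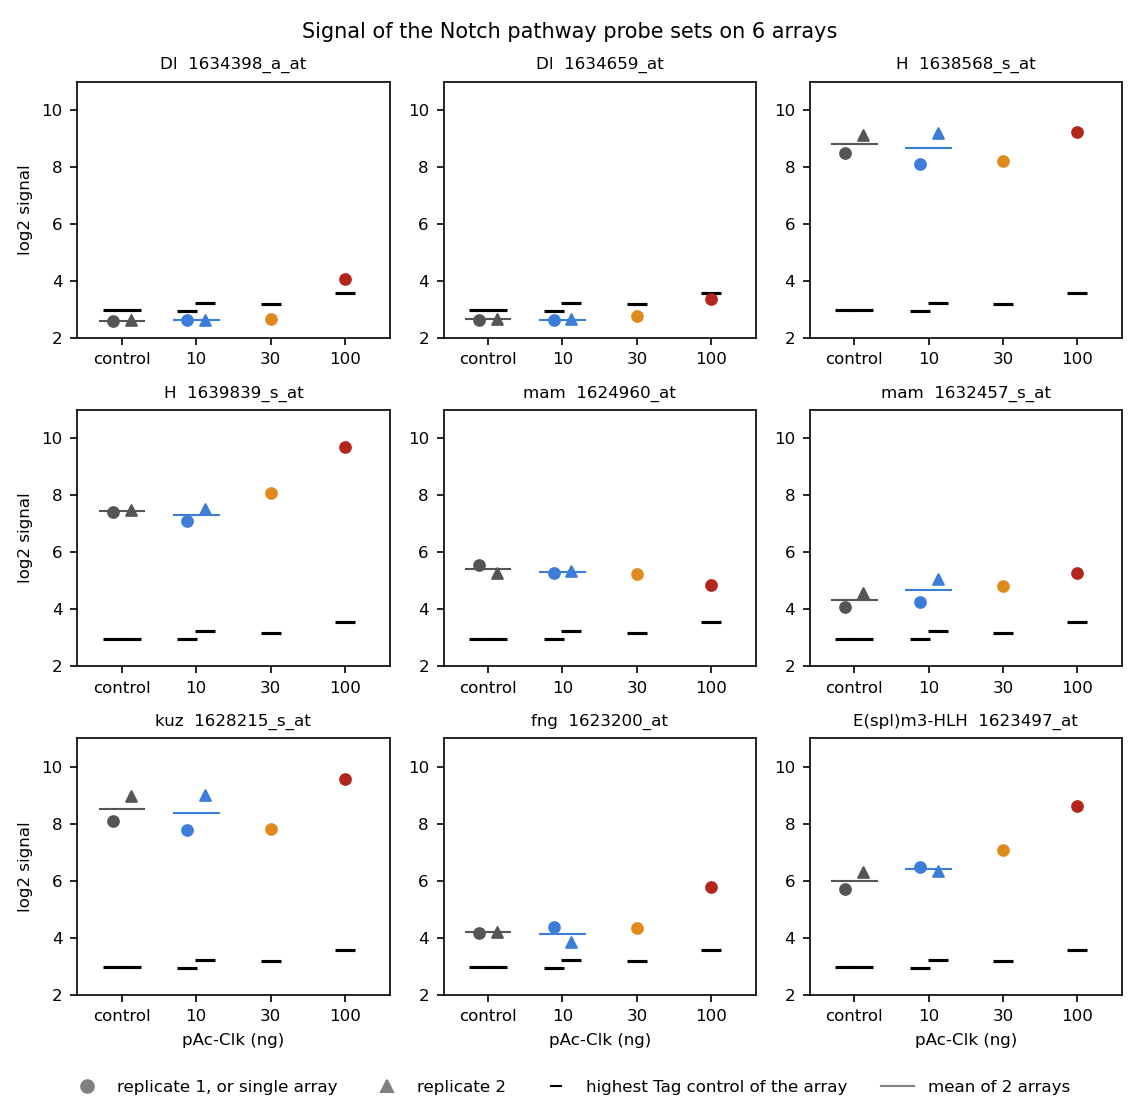
Log2 signal (y axis) of the 9 member probe sets on each of the 6 arrays, by amount of pAc-Clk in ng (x axis). Circles are replicate 1 or a single array, triangles replicate 2, coloured lines the mean of 2 arrays and black dashes the highest Tag control of each array. Both Dl probe sets sit under the dashes except for 4.08 at 100 ng, and E(spl)m3-HLH is the 1 member whose 4 Clk arrays all lie above both controls.

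At 10 ng, the dose with replicates, 0 of the 7 tested member probe sets passed (limma adjusted p under 0.05, by Benjamini-Hochberg over all 8446 tested probe sets), and 0 did at an unadjusted p under 0.05. The background was small at this dose: 0.0947% of tested probe sets were called, all higher. The 10 ng changes of the members ran from -0.14 to 0.40 with a median of -0.11, against a median of -0.09 over all tested probe sets. The design could not resolve small changes, and the 95% confidence intervals were wide. The widest were -1.0 to 0.74 around -0.13 for kuz and -0.89 to 0.61 around -0.14 for H 1638568_s_at. For mam 1632457_s_at the interval was -0.31 to 0.98 around 0.34, and for fng -0.58 to 0.44 around -0.07.

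At 30 ng 1 of the 7 member probe sets was called, E(spl)m3-HLH, where 5.73% of all tested probe sets were called higher and 11.6% lower. At 100 ng 4 were called higher, those of E(spl)m3-HLH and fng and 1 each of H and mam, and 0 lower. Of all tested probe sets, 33.6% were called higher there and 35.2% lower. With 68.9% of the tested probe sets called at 100 ng, a call there does not set a gene apart. Each of these doses is 1 array that was assumed to vary like the replicated groups, and its 5' minus 3' control signal was -9.40 or -8.25.

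E(spl)m3-HLH, a bHLH repressor gene and target of Notch, was the 1 member with higher signal on every Clk array than on both controls. It read 5.70 and 6.29 in controls, 6.47 and 6.34 with 10 ng, 7.09 with 30 ng and 8.61 with 100 ng. The groups did not overlap, although the lower 10 ng array was close to the higher control. Of all tested probe sets, 1.99% lay above both controls on all 4 Clk arrays, and 3.71% did so on both 10 ng arrays. At 10 ng the gene averaged 6.40 ± 0.09, against 6.0 ± 0.42 in controls (SD, n = 2 each). The log2 change was 0.40 (SE 0.25, 95% interval -0.15 to 0.96, limma adjusted p = 1.00). The change was 1.09 at 30 ng (SE 0.30, 2.13-fold, limma adjusted p = 0.0362) and 2.61 at 100 ng (SE 0.30, 6.12-fold, limma adjusted p = 3.97e-05). The 30 ng call was lost without control replicate 1 (0.80, limma adjusted p = 0.166), without 10 ng replicate 1 (adjusted p = 0.0717) or replicate 2 (adjusted p = 0.0701), with no filter (0.180) and at face value (0.132), whereas the 100 ng call passed in 15 of 15 settings. Both calls come from the arrays with low 5' control signal. Every setting used the same single 100 ng array, so the settings cannot show how another array at that dose would read.

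The genes whose course over the 6 arrays lay closest to that of E(spl)m3-HLH, by Euclidean distance of mean-centred profiles among 6612 genes, were CG32695 (0.276), Chpf (0.300) and CG7607 (0.348). Chpf read 6.76 and 7.59 in controls, 7.41 and 7.38 with 10 ng, 8.30 with 30 ng and 9.60 with 100 ng. These are descriptions over 6 arrays of which the 30 and 100 ng ones weigh most.

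The other genes of the E(spl) complex were either not tested or not called. Of its 12 genes on the list, 10 had a named probe set, and 4 of these (40%) read above background on both controls. Across all genes with a named probe set that share was 63.7%. E(spl)mbeta-HLH, another bHLH repressor gene, read 7.86 and 8.28 in controls, 8.12 and 8.07 with 10 ng, 8.01 with 30 ng and 7.86 with 100 ng. The Clk arrays of E(spl)mbeta-HLH overlapped the controls, and its changes of 0.03 with 10 ng, -0.06 with 30 ng and -0.21 with 100 ng were not called (limma adjusted p = 1.00, 0.896 and 0.505).

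The Bearded-family gene E(spl)m6-BFM read 3.06 and 3.13 in controls, just above background, and 4.24 at 100 ng, where the highest Tag read 3.56. It did not pass the filter. With no filter it was called higher at 100 ng (1.15, SE 0.08, limma adjusted p = 0.00205), and 4 of 10 genes of the complex were, E(spl)m3-HLH, E(spl)m6-BFM, E(spl)m5-HLH and E(spl)m1, against 38.7% of all genes. At face value 3 of 7 were called higher, against 34.5% of all genes. E(spl)malpha-BFM stayed between 2.85 and 3.34. The other 6 genes of the complex with a probe set, E(spl)mdelta-HLH, E(spl)m1, E(spl)m2-BFM, E(spl)m4-BFM, E(spl)m5-HLH and E(spl)m7-HLH, read between 1.94 and 3.26 on the 6 arrays. In the RefSeq gene table E(spl)m2-BFM and E(spl)m4-BFM are the nearest complex genes on either side of E(spl)m3-HLH, and both were under background on all 6 arrays. Only E(spl)m3-HLH and E(spl)mbeta-HLH passed the filter, and whether their responses differ was not tested.

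**Figure D2:**
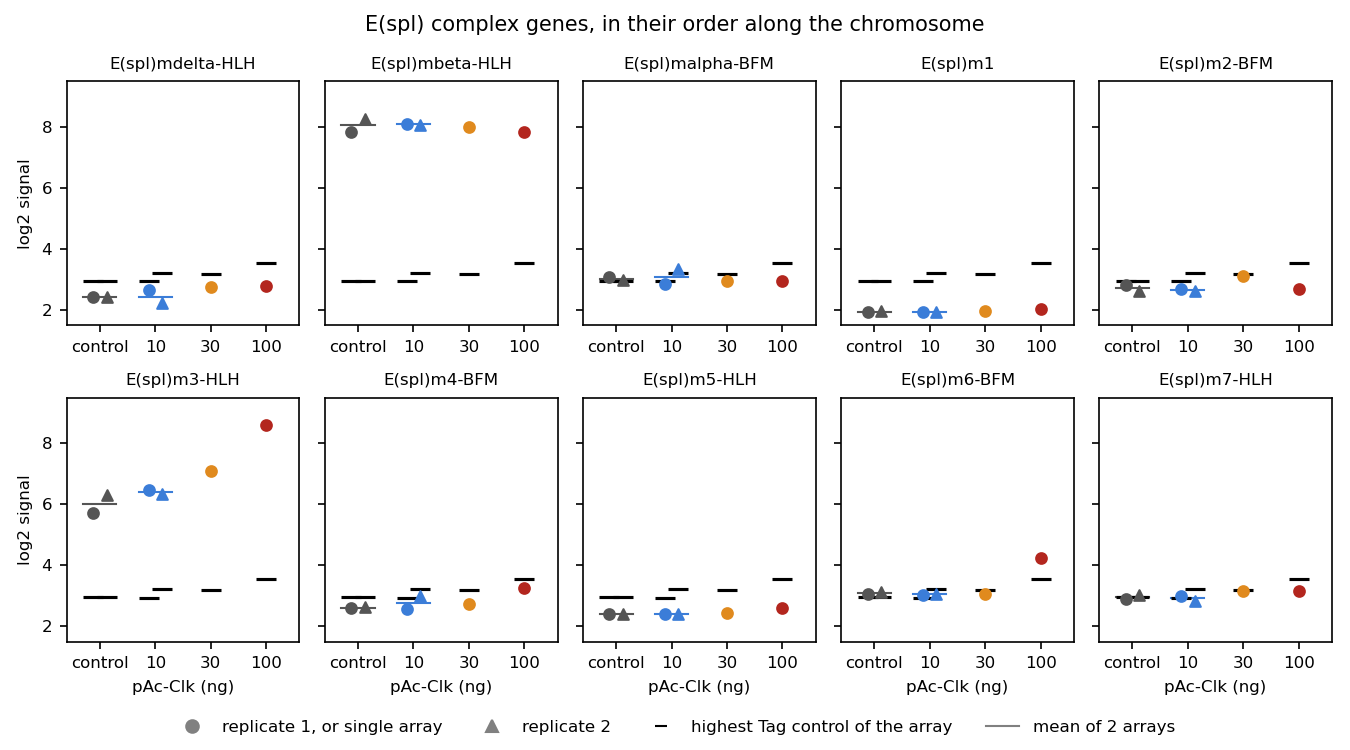
Log2 signal (y axis) of 10 genes of the E(spl) complex on the 6 arrays by amount of pAc-Clk in ng (x axis), ordered as in the RefSeq gene table. Symbols are circles for replicate 1 or a single array, triangles for replicate 2, black dashes for the highest Tag control and coloured lines for the mean of 2 arrays. E(spl)mbeta-HLH stays between 7.86 and 8.28, E(spl)m3-HLH reaches 8.61 at 100 ng, and the other genes lie near or under background apart from E(spl)m6-BFM at 4.24.

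Receptor processing was represented by kuz and fng. kuz read 8.09 and 8.96 in controls, 7.77 and 9.02 with 10 ng, 7.81 with 30 ng and 9.57 with 100 ng. The groups overlapped, and replicates differed by 2.37-fold at 10 ng and by 1.83-fold in controls. kuz averaged 8.40 ± 0.88 at 10 ng and 8.52 ± 0.61 in controls (SD, n = 2 each), a change of -0.13 (SE 0.39, limma adjusted p = 1.00).

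The change of kuz was -0.72 at 30 ng (SE 0.47, limma adjusted p = 0.307) and 1.04 at 100 ng (SE 0.47, limma adjusted p = 0.0749). It was called lower at 30 ng without control replicate 1 (-1.15) and higher at 100 ng without control replicate 2 (1.48). With all arrays kept it was also called in both directions with a filter at 6 (-0.72 at 30 ng, limma adjusted p = 0.0126, and 1.04 at 100 ng, limma adjusted p = 1.68e-05). In all, 2 of 15 settings called it at 30 ng and 5 of 15 at 100 ng. Without a control replicate and with the filter at 6, the prior degrees of freedom of the fit were infinite. The spread of kuz between its own replicates then does not enter its p-value.

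fng, the glycosyltransferase gene, read 4.18 and 4.19 in controls, 4.38 and 3.86 with 10 ng, 4.35 with 30 ng and 5.78 with 100 ng. The 10 ng arrays lay on either side of the controls, and only the 100 ng array stood clear of them. Its change was 0.16 at 30 ng (limma adjusted p = 0.714) and 1.59 at 100 ng (SE 0.28, 3.02-fold, limma adjusted p = 0.000579). The highest Tag signal was 3.56 on the 100 ng array, against 2.96 and 2.97 on the controls.

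In the nuclear complex, the 2 probe sets of H gave different accounts at 100 ng. H probe set 1638568_s_at read 8.48 and 9.12 in controls, 8.11 and 9.20 with 10 ng, 8.20 with 30 ng and 9.24 with 100 ng. H probe set 1639839_s_at read 7.43 and 7.48 in controls, 7.11 and 7.52 with 10 ng, 8.09 with 30 ng and 9.71 with 100 ng. The replicates of 1638568_s_at differed by 2.13-fold at 10 ng and 1.56-fold in controls and its groups overlapped, whereas 1639839_s_at stood above both controls at 30 and 100 ng.

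At 10 ng both H probe sets differed by -0.14 (limma adjusted p = 1.00 for each). At 100 ng 1639839_s_at rose by 2.26 (SE 0.26, 4.78-fold, limma adjusted p = 3.73e-05), while 1638568_s_at differed by 0.44 (SE 0.41, limma adjusted p = 0.366). H 1638568_s_at was called at 30 ng without control replicate 1 (-0.93, limma adjusted p = 0.0421) and at 100 ng without control replicate 2 (0.76, limma adjusted p = 0.0373).

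mam, whose product bridges Su(H) and the transcription machinery, also had probe sets that moved apart. mam probe set 1624960_at read 5.55 and 5.28 in controls, 5.27 and 5.34 with 10 ng, 5.24 with 30 ng and 4.85 with 100 ng. mam probe set 1632457_s_at read 4.09 and 4.57 in controls, 4.27 and 5.06 with 10 ng, 4.83 with 30 ng and 5.26 with 100 ng. At 10 ng the groups overlapped for both.

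At 100 ng 1624960_at differed by -0.56 (SE 0.26, limma adjusted p = 0.0791) and 1632457_s_at rose by 0.93 (SE 0.35, limma adjusted p = 0.0382). The call of mam 1632457_s_at was lost without control replicate 1 (0.69, limma adjusted p = 0.0578), with no filter (0.159), at face value (0.126) and with probe sets averaged (0.19, limma adjusted p = 0.558).

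The disagreement was tested on the difference between probe sets, in a limma fit over the 312 genes with exactly 2 tested probe sets that was added after the values were seen. At 10 ng 0 of the 312 were called, and 0 of the genes below reached an unadjusted p under 0.05. At 100 ng the change of the brighter minus the dimmer probe set was -1.82 for H (SE 0.42, limma adjusted p = 0.0219) and -1.50 for mam (SE 0.48, limma adjusted p = 0.0499). Of the 312 genes 69.9% were called in this way at 100 ng and 25.6% at 30 ng, so probe sets of 1 gene moved apart across the array at these doses. For H and mam the account at 100 ng thus depends on which probe set is read.

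**Figure D3:**
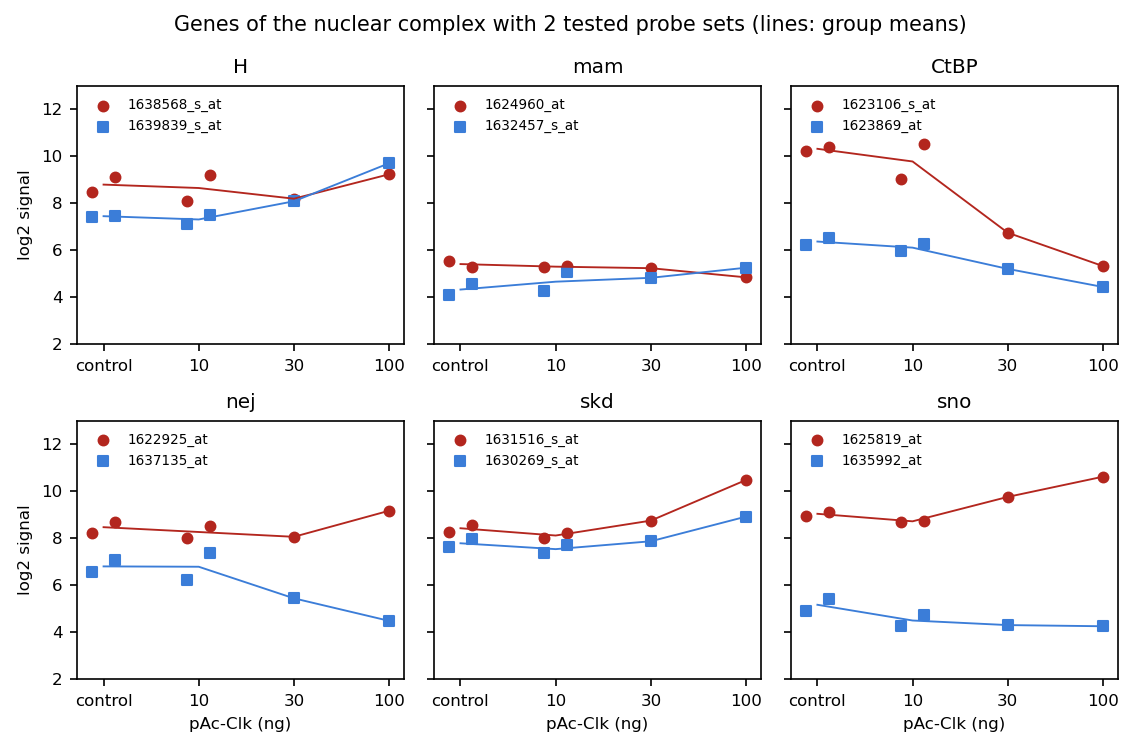
Log2 signal (y axis) of both tested probe sets of H, mam, CtBP, nej, skd and sno on the 6 arrays by amount of pAc-Clk in ng (x axis), with lines through the group means. Red circles are the probe set with the higher mean and blue squares the other. At 10 ng no difference between the pairs was called, and at 100 ng they differ, by -1.82 for H, 3.03 for nej and -3.06 for CtBP.

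The corepressors that H recruits were read from a wider list of 61 Notch pathway genes, of which 51 had a named probe set. CtBP read 10.23 and 10.42 in controls, 9.05 and 10.52 with 10 ng, 6.75 with 30 ng and 5.33 with 100 ng by its brighter probe set, 1623106_s_at. Its 10 ng arrays overlapped the controls, and both single arrays lay far below them. The change was -0.54 at 10 ng (SE 0.38, limma adjusted p = 1.00), -3.57 at 30 ng (SE 0.46, limma adjusted p = 0.000662) and -4.99 at 100 ng (SE 0.46, limma adjusted p = 8.74e-06). The 30 ng call was lost with no filter (0.100), with robust moderation (0.117) and at face value (0.0595), each an adjusted p of limma.

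The dimmer CtBP probe set, 1623869_at, fell by 1.17 at 30 ng (SE 0.28, limma adjusted p = 0.0203) and fell by 1.93 at 100 ng (SE 0.28, limma adjusted p = 0.000165). Both CtBP probe sets were thus lower, by unequal amounts. gro, which encodes Groucho and was named after its values were seen, as were Smr, krz, kto and nej, went the other way, with 8.42 and 8.78 in controls, 8.13 and 8.47 with 10 ng, 9.29 with 30 ng and 10.44 with 100 ng, and it was called at 100 ng (1.83, SE 0.24, limma adjusted p = 9.80e-05).

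The wider list was counted by role. Above background on both controls were 1 of 2 ligand genes, 3 of 3 for ligand endocytosis, 4 of 4 for receptor glycosylation, 4 of 6 for receptor cleavage, 8 of 8 for receptor trafficking and turnover and 10 of 10 for the nuclear complex. For the E(spl) complex the count was 4 of 10, and for other Hes and Bearded family genes 2 of 8. In all, 36 of 51 genes (70.6%) were above background on both controls, against 63.7% of all 11982 named genes. On all 6 arrays 32 of 51 (62.7%) were above it, against 57.4% of all genes. The genes not above it on both controls included Tace and kul, which encode the other ADAM-type proteases of the list, dpn and Hey, which encode bHLH repressors of the Hes type, and the Bearded-family genes Brd, Tom and Ocho. They also included her, or hermaphrodite, a sex determination gene that was placed among the Hes genes by its symbol and is not one of them. The gene h, which encodes the pair-rule repressor Hairy, lay far above it, at 11.17 and 11.61 in controls, 9.99 and 11.65 with 10 ng, 10.63 with 30 ng and 11.74 with 100 ng, and was not called at any dose. It was called at 30 ng without control replicate 1 (-0.99, limma adjusted p = 0.00543) and with a filter at 6 (-0.76, limma adjusted p = 0.00102), and at 100 ng with a replicate block that places the unnumbered single arrays with replicate 1 (0.87, limma adjusted p = 0.000766). With those arrays midway between replicates it was called at 30 ng only (-0.76, limma adjusted p = 0.00672). The prior degrees of freedom were infinite in each of these fits that called h. The spread of h between its own replicates thus did not enter these calls.

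**Figure D4:**
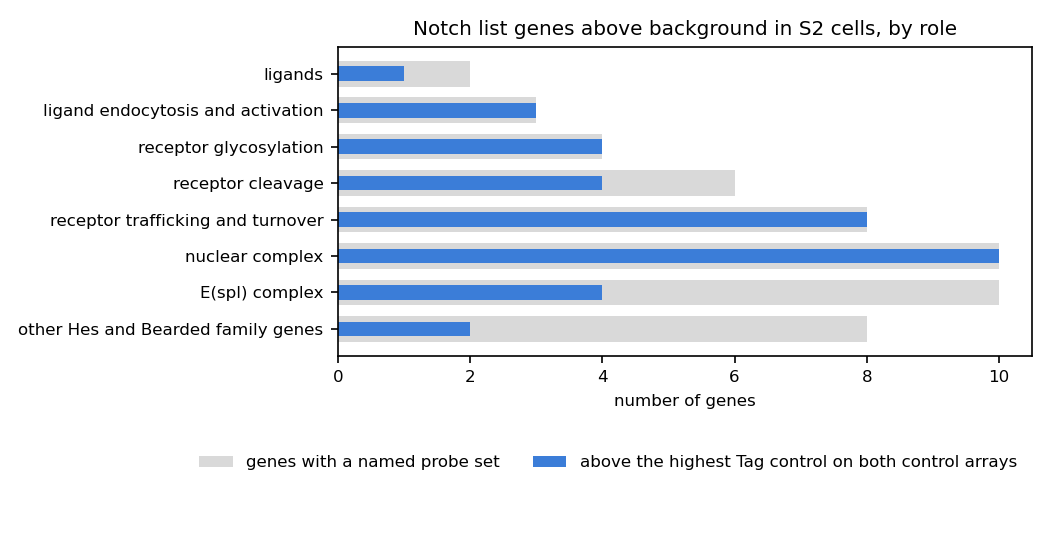
Number of genes (x axis) of the Notch list in each role (y axis). Grey bars count genes with a named probe set and blue bars those with both controls over the highest Tag signal. The nuclear complex is filled at 10 of 10, against 4 of 10 for the E(spl) complex and 2 of 8 for other Hes and Bearded family genes.

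Of the 32 wider list genes tested, 0 were called at 10 ng, and 3 (Nedd4, neur and lqf) had an unadjusted p under 0.05. Of all tested genes, 0.0605% were called and 1.97% had an unadjusted p under 0.05. Their median change was -0.16, against -0.09 for all genes, and after quantile normalization these medians were -0.08 and 0.008. Nedd4, a HECT ubiquitin ligase gene, read 8.33 and 8.38 at 10 ng, against 8.81 and 9.03 in controls (-0.57, SE 0.17, limma adjusted p = 1.00). The ubiquitin ligase gene neur, whose product promotes Dl endocytosis, read 6.88 and 6.89 at 10 ng, against 7.24 and 7.42 in controls (-0.45, SE 0.20, limma adjusted p = 1.00). Of the 32 genes, 10 had both 10 ng arrays below both controls and 1 above, against 22.9% and 3.57% of all genes. On all 4 Clk arrays 1 lay below both controls and 1 above, against 7.65% and 1.88% of all genes.

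At 30 ng 2 of the 32 were called higher, E(spl)m3-HLH and sno, and 2 lower, CtBP and kto. Over all tested genes 6.22% were called higher and 10.4% lower. sno, which encodes the nuclear protein Strawberry notch, rose by 0.72 (limma adjusted p = 0.0326), and kto, a subunit of the Mediator kinase module, fell by 0.80 (limma adjusted p = 0.0381). Both calls were lost without control replicate 1 (limma adjusted p = 0.185 for sno and 0.0907 for kto), without control replicate 2 (0.0646 and 0.109), with a replicate block that places the unnumbered 30 and 100 ng arrays with replicate 1 (0.0523 and 0.115; not with these arrays midway between replicates), with no filter (0.0901 and 0.123) and at face value (0.0757 and 0.097). The dimmer sno probe set, 1635992_at, lay below both controls on all 4 Clk arrays, at -0.87 at 30 ng (limma adjusted p = 0.077) and -0.91 at 100 ng (limma adjusted p = 0.0214), and the difference between the sno probe sets was called at 30 ng (1.59, limma adjusted p = 0.0457). After quantile normalization 6 of the 32 were called higher and 2 lower, against 14.9% and 11.7% of all genes. Over all genes the 30 ng median was 0.15.

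At 100 ng 16 of the 32 were called higher and 4 lower, against 34.9% and 35.4% of all tested genes (70.3% either way). The median was 0.80 for the list and 0.05 for all tested genes. After quantile normalization the counts were 17 and 4, against 43.6% and 32.6% of all genes, and the medians 0.94 and 0.256. All 3 genes for ligand endocytosis were called higher: neur (2.30), the epsin gene lqf (1.16) and the auxilin gene aux (1.17). Of 8 genes for trafficking and turnover 6 were called higher, among them Nedd4 (1.87), the Notch inhibitor numb (2.11), the ubiquitin ligase gene dx (1.45) and the HECT ligase gene Su(dx) (1.14). The beta-arrestin gene krz was called lower (-0.85, limma adjusted p = 0.0148), but not after quantile normalization (-0.19, limma adjusted p = 0.494) or with that replicate block (-0.74, limma adjusted p = 0.0548); it was called with the single arrays midway.

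Of 4 genes each for glycosylation and for cleavage, 1 of each was called higher at 100 ng and 1 lower. O-fut1, which adds the fucose that Fringe extends, read 10.20 at 100 ng, against 11.79 and 11.85 in controls (-1.62, SE 0.19, limma adjusted p = 4.14e-05). Psn, the catalytic subunit of gamma-secretase, read 10.13 at 100 ng, against 11.24 and 11.11 in controls (-1.05, SE 0.17, limma adjusted p = 0.000288). The furin gene Fur2 was called higher (0.87, limma adjusted p = 0.00362), whereas pen-2 (0.14), rumi (-0.09) and shams (-0.04) were not called. The Mediator subunit gene skd (2.05) and the corepressor gene Smr (1.68) were called higher, and ebi, a corepressor component, was 0.00. The brighter nej probe set, 1622925_at, was not called in the main fit (0.70, SE 0.29, limma adjusted p = 0.0557). That depended on the setting. It was called higher after quantile normalization (0.89, limma adjusted p = 0.0299), after median centring (0.87, limma adjusted p = 0.016) and with robust moderation (0.70, limma adjusted p = 0.0052), among others. With no filter and at face value it was not called. The dimmer nej probe set, 1637135_at, was called lower in the main fit (-2.32, SE 0.43, limma adjusted p = 0.000832).

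**Figure D5:**
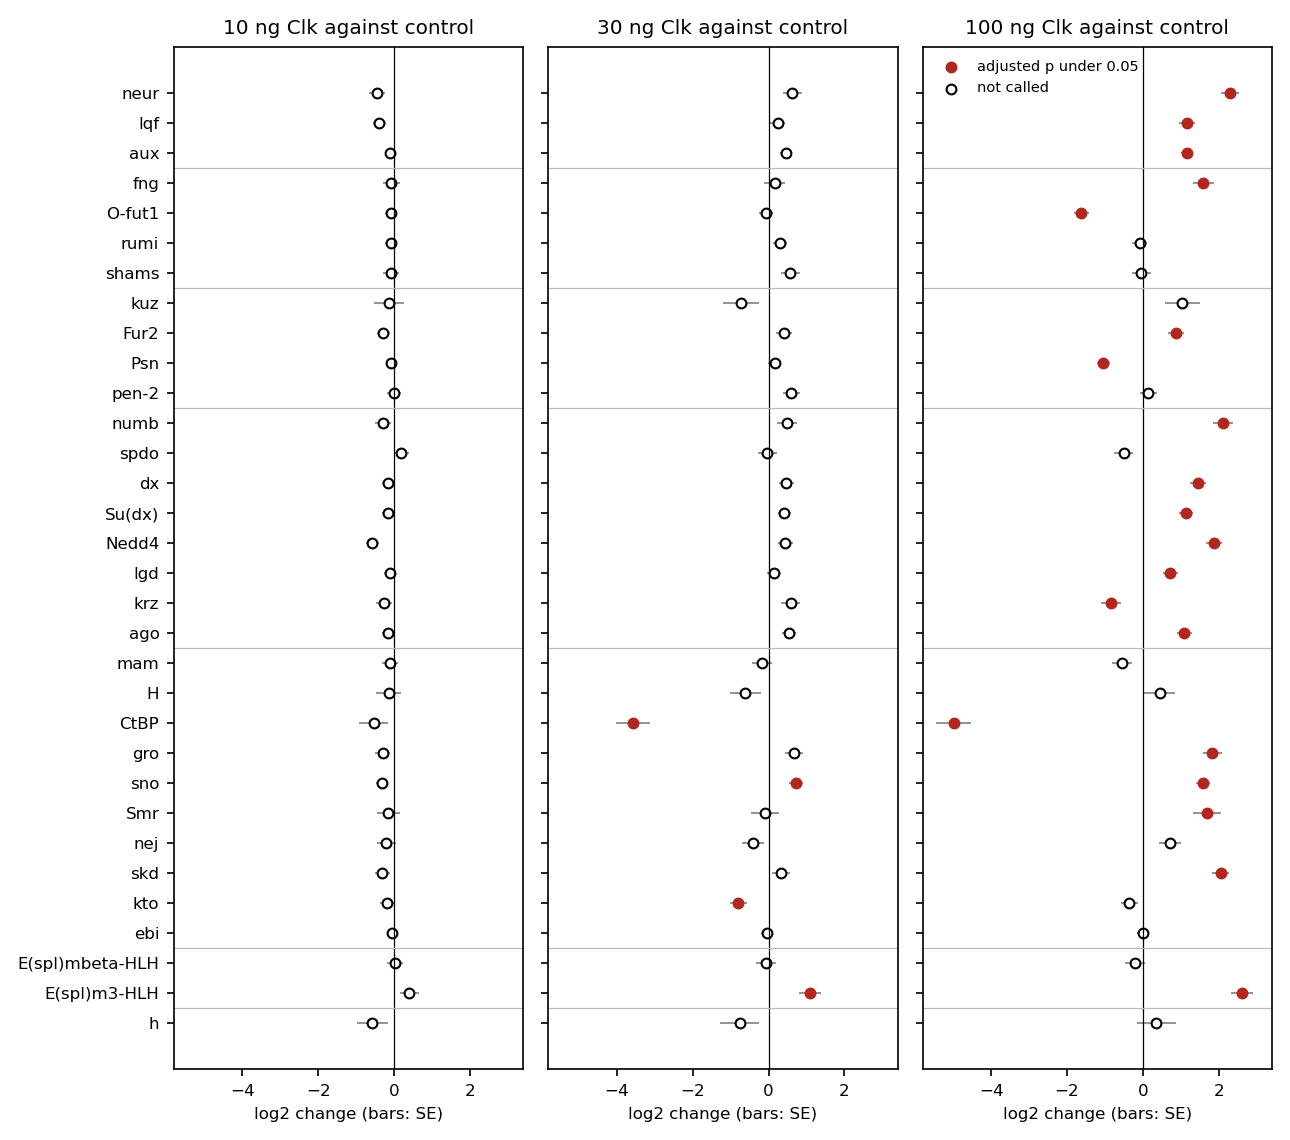
Log2 change against control (x axis, bars are SE) of the 32 tested Notch list genes (y axis, grey lines separate the roles) at 10, 30 and 100 ng of pAc-Clk, by each gene's brightest probe set. Red points have a limma adjusted p under 0.05 and open points do not. At 10 ng 0 of 32 are red, at 30 ng 4 and at 100 ng 20, with CtBP the lowest at -4.99 and E(spl)m3-HLH the highest at 2.61.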

How the data were processed

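RNA of S2 cells was measured on 6 Affymetrix arrays, and the titles gave each array its group. The titles number the control and 10 ng arrays 1 and 2 and give the 30 and 100 ng arrays no number. The authors deposited linear intensities made with GCRMA, per the submitters' processing notes, without a version or settings; 0 columns were left unassigned. At face value their log2 reaches 22.86, beyond a 16-bit scanner, while their natural log spans 1.69 to 15.85, so the natural log was read as log2, an inference. The number of arrays limits the precision.

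A probe set was tested where 2 or more of the 6 arrays reached a signal of 4 (8446, without 183 control probe sets), with limma 3.58.1 in R 4.3.3 (with data.table, version 1.17.8): 1 coefficient per dose group, eBayes with an intensity trend, 2 residual and 7.605 prior degrees of freedom, and Benjamini-Hochberg adjustment over all tested probe sets within each dose. Symbols came from the platform annotation, updated by Entrez ID to the RefSeq gene list, and 13647 probe sets had 1 symbol, 402 several and 4720 none. The brightest probe set stood for a gene (6612 genes). Members and lists were chosen with earlier results of these data known. Named were all members, and of each role up to 3 brightest genes and up to 3 of smallest p at 100 ng, beside genes chosen after their values were seen, which the text names as such, and genes under background. N, named by the rule for its likeness list, has no probe set with 1 symbol here. The fit was tested on simulated data in which each probe set had the same spread on all 6 arrays. That cannot test whether the single arrays vary like the replicated groups. The 10 ng arrays shared 6 identical values of 18952, and the controls 5. No sequences or coordinates are given, since the files and tables used here hold no sequence and name no build for the array. Figures used matplotlib 3.10.9 in Python 3.11.15. Alternatives of scale, filter, scaling, moderation, block, background and left-out arrays are in the closing section.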

Additional observations from a re-analysis of the deposited data

How the results depend on the processing

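No member was called at 10 ng in any of the settings run. The count of genes called at 10 ng was 4, but 0 at face value (246 at an unadjusted p under 0.05, smallest limma adjusted p = 0.119) and 0 with no filter (354 and 0.448), 10 with robust moderation, 7 with the mean of a gene's probe sets, 13 with the replicate block in either form below, and 1 to 12 with 1 replicate left out. At 30 ng it was 1097 (37.5% higher), but 456 at face value (25.9%), 450 with no filter, 1758 after quantile normalization (55.9%), 1757 after median centring (51.6%) and 1814 with robust moderation (53.7%), and 753 to 1119 with 1 replicate left out. At 100 ng it was 4647 (49.7% higher), with 4156 to 4767 when 1 replicate was left out, but 6891 with no filter (67.2%) and 5371 at face value (57.8%), both with more genes tested.

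Directions turned for some uncalled changes. mam 1624960_at became 0.07 at 30 ng after quantile normalization, and fng 0.02 at 10 ng after median centring. The mean of both mam probe sets was 0.11, 0.16 and 0.19 at 10, 30 and 100 ng, where 1624960_at alone was -0.11, -0.18 and -0.56, and the mean of both H probe sets was 0.02 at 30 ng, where 1638568_s_at alone was -0.61. With 1 replicate left out, 10 ng changes ran from -0.75 to 0.49 for kuz, -0.69 to 0.40 for H 1638568_s_at, -0.34 to 0.07 for H 1639839_s_at, -0.33 to 0.19 for fng, -0.24 to 0.02 for mam 1624960_at and -0.06 to 0.73 for mam 1632457_s_at. The cause was not tested.

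The titles number controls and 10 ng arrays 1 and 2, and replicate 2 minus replicate 1 correlated at 0.33 between these groups over 8446 probe sets, but with 2 pairs the numbers are not taken to pair the samples. The block as first set up placed the unnumbered 30 and 100 ng arrays with replicate 1, which no title supports. In it prior degrees of freedom were infinite, kuz was 1.57 (limma adjusted p = 3.07e-06) and H 1638568_s_at 0.87 (0.00935) at 100 ng, and mam 1632457_s_at 0.82 (0.0493) at 30 ng. With those arrays midway between replicates, a replicate block chosen after seeing the data, these values were 1.04 (0.000884), 0.44 (0.171) and 0.50 (0.212), so only kuz stayed called. With the filter at 6, where mam and fng were not tested, kuz and both H probe sets were called at 30 ng (-0.72, -0.61 and 0.64), and kuz at 100 ng. Prior degrees of freedom were also infinite there, in the midway block and with either control replicate left out. With robust moderation only their median over probe sets was recorded, and that was infinite. It does not give the value for each probe set. With probe sets averaged, kuz, H (1.35), fng and E(spl)m3-HLH were called at 100 ng and mam was not. As kuz has 1 probe set, averaging left its change at 1.04, and only the fit around it differed. Over members and settings, 255 values kept direction and call, 9 lost and 14 gained a call, and 14 changed sign.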
